A study of Homo sapiens with 24 samples.

Results

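The genes described here encode 51 subunits of the ATP-dependent chromatin remodelers of the SWI/SNF, ISWI, CHD, NuRD and INO80 families. They were taken from a fixed list by gene symbol, and all 51 were found. Of these, 39 were read from the deposited count table, which holds 33113 genes, and 12 (SMARCA1, SMARCA2, SMARCA4, SMARCA5, SMARCB1, SMARCC1, SMARCC2, SMARCD1, SMARCD2, SMARCD3, SMARCE1 and SS18) from a second, longer table of 37967 genes. The list holds 24 SWI/SNF subunits, 5 ISWI subunits, 6 CHD proteins outside NuRD, 13 NuRD subunits and 3 INO80 subunits.

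RNA of HCT116, an established human colorectal cancer cell line, and of its derivative HCT116 oxpl-R was sequenced in 24 libraries. The oxpl-R cells were obtained by repeated exposure of the parental cells to oxaliplatin, a platinum drug that crosslinks DNA, and were kept as a heterogeneous population with an abnormal chromosome number. Every group, untreated controls included, consisted of cells that carry a doxycycline-inducible TetOn transgene for adenoviral E1A. Each line was sequenced in 4 groups of 3 biological replicates, namely a control without either agent, E1A (0.5 µg/mL doxycycline), oxaliplatin (25 µM for 24 h), and E1A + oxaliplatin, in which doxycycline was given 3 h before oxaliplatin. The series contrasts the response to oxaliplatin, with and without E1A, in sensitive and resistant cells. No group that received doxycycline without the transgene was analysed here, so that effects of doxycycline and of E1A cannot be told apart, and E1A itself was not measured in the tables used here.

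Chromatin remodelers use the energy of ATP to slide, evict or exchange nucleosomes. SWI/SNF complexes (BAF, PBAF and non-canonical BAF) are built around one of the mutually exclusive ATPases SMARCA4 or SMARCA2 and open chromatin at enhancers and promoters, while ISWI complexes space nucleosomes. NuRD joins a CHD3 or CHD4 ATPase to the histone deacetylases HDAC1 and HDAC2, and INO80 acts in nucleosome and H2A.Z dynamics and in DNA repair. Genes of SWI/SNF, with ARID1A in the lead, are among the most often mutated chromatin genes in colorectal and other cancers.

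All 51 genes were detected in every library, with at least 8 counts each. Levels are given as CPM (counts scaled to a normalised library of 1000000), differences as log2 fold changes (log2FC) with their standard error (SE) from edgeR's quasi-likelihood test, and a gene was called at an adjusted p below 0.05 over all genes of its table. RNA of a whole culture was measured, so that fewer cells of a type and less RNA per cell cannot be told apart. The epithelial genes EPCAM (175 to 388 CPM), CDH1 (71.5 to 202.6 CPM) and KRT8 (2685 to 8868 CPM) were expressed in every library, whereas CEACAM5 did not exceed 0.803 CPM. Of the genes of other cell types, the leukocyte gene PTPRC did not exceed 0.373 CPM, the endothelial gene PECAM1 0.418 CPM and the fibroblast gene DCN 0.0955 CPM. Other listed genes of these types were higher. The fibroblast gene COL1A1 lay between 13.0 and 40.3 CPM, COL1A2 between 0 and 13.0 CPM and COL3A1 between 0.106 and 2.84 CPM. The leukocyte gene CD68 lay between 0.343 and 6.57 CPM.

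Some libraries stood apart from their group in a way that bears on these genes, 21 of which have a canonical transcript of 6 kb or more. Against the mean of the HCT116 controls, the median log2 shift of 1806 other genes with transcripts of 6000 bases or more was −0.64 and −0.61 in HCT116 oxaliplatin replicates 1 and 2, but −0.03 in replicate 3. The p53 target CDKN1A stood at 1723 to 2136 CPM in all 3 of these libraries, against 137 to 148 CPM in the controls. In the HCT116 E1A group the same shift was −0.14 in replicate 3 and 0.08 and 0.07 in the others. In the HCT116 E1A + oxaliplatin group it was −0.32 in replicate 1 and −0.52 and −0.40 in the others. In the HCT116 oxpl-R E1A + oxaliplatin group it was −0.52 in replicate 3 and −0.22 and −0.26 in the others. What this difference between replicates came from was not tested, and results that rest on these libraries are given with and without them.

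The 250 bases before the transcription start are shown for 5 genes as regulatory context. They are SMARCA2, DPF3 and RUVBL1, which were called higher in HCT116 oxpl-R in each of the 4 comparisons of the lines, PHF10, which had the largest difference between the untreated lines, and BRD9, whose response to oxaliplatin differed between the lines. The sequences are from RefSeq (GRCh38.p14), 5′ to 3′ on the strand of the gene. Each start is also the start of the canonical GENCODE transcript. Capitals mark GGGCGG (the GC box), CCAAT, or the E2F motifs TTTCCCGC, TTTGGCGC, TTTCGCGC and TTTGCCGC, each on either strand.
SMARCA2 (chr9:2015097-2015346, + strand): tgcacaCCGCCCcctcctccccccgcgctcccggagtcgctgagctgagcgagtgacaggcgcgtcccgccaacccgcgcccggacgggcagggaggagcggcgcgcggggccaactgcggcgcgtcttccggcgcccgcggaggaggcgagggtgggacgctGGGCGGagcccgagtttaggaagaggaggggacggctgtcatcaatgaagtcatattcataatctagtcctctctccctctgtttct
DPF3 (chr14:72894102-72894351, − strand): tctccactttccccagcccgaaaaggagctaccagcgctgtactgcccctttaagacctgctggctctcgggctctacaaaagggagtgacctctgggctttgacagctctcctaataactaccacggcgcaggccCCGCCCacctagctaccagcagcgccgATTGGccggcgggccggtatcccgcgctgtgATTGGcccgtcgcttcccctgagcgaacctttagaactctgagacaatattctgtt
RUVBL1 (chr3:128123813-128124062, − strand): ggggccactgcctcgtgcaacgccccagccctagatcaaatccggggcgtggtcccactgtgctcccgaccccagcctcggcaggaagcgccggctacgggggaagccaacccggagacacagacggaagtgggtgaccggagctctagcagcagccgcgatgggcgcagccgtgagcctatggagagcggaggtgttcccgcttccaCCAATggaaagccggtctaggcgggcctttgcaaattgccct
PHF10 (chr6:169724501-169724750, − strand): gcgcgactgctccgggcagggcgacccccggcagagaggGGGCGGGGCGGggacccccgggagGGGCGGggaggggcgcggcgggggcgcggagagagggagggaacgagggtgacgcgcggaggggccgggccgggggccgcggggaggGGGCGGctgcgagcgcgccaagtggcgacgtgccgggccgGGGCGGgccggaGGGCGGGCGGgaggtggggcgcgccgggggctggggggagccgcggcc
BRD9 (chr5:892802-893051, − strand): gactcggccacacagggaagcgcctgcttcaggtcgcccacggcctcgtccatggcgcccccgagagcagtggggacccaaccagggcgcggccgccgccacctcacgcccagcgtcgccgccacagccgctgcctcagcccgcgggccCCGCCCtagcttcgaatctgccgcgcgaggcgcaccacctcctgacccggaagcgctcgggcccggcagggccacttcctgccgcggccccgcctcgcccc
The PHF10 window held 7 GC box matches, some of them overlapping, SMARCA2 2, DPF3 and BRD9 1 each and RUVBL1 none. DPF3 held 2 CCAAT matches and RUVBL1 1, and none of the 5 windows held an E2F motif. Over 18034 promoters of this length, 1 per gene, 55.6% held a GC box, 34.4% a CCAAT box and 3.62% an E2F motif. Among the 41 subunits with a RefSeq start within 1000 bases of the canonical one, these shares were 75.6%, 34.1% and 2.44%. A match of letters is a description of the sequence and not a binding site.

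Levels between genes were compared in HCT116 controls as CPM per kb of transcript, on the scale of the second table. The length used was that of the canonical transcript of each gene. Which transcripts were expressed was not examined, so that ranks and ratios between genes depend on this choice of length. The AAA+ ATPase RUVBL2, which builds INO80 and related complexes together with RUVBL1, was highest at 218 ± 18.3 (SD, n = 3), followed by SMARCD2 at 125 ± 12.7 and RUVBL1 at 121 ± 8.41, and the latter neighbours did not differ beyond their spread. Among the ATPases the order was CHD4 (64.1 ± 1.65), SMARCA4 (25.6 ± 2.16), SMARCA5 (24.0 ± 1.72) and SMARCA1 (16.2 ± 1.39), of which SMARCA4 and SMARCA5 did not differ beyond their spread. INO80 (10.5 ± 0.343) and CHD3 (10.0 ± 0.285) followed, with CHD8 at 7.14 ± 0.267. SMARCA2 reached 1.11 ± 0.109, and DPF3, a PHD finger subunit of BAF known from heart and muscle, was lowest of all 51 at 0.0579 ± 0.00753.

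Comparison of the untreated lines showed lower levels of most subunits in HCT116 oxpl-R. Of 51 genes, 34 were lower, 4 were higher (SMARCA2, DPF3, RUVBL1 and MBD3) and 13 did not pass the test. Over all genes, 14.2% of 16715 tested in the count table and 11.5% of 19657 in the second table were lower, and 14.1% and 12.6% were higher. The median log2FC of the 51 subunits was −0.55, against −0.02 over the 11096 genes of the count table with at least 10 counts on average. The subunits with transcripts of 6 kb or more had a median of −0.66 and the shorter ones −0.38. Over the expressed genes of the count table, subunits included, these medians were −0.19 for long transcripts (1825 genes) and 0.02 for shorter ones (9204 genes). The part of transcript length in the difference was not tested beyond an offset for length and GC content, with which the number of called subunits stayed within 1.5 times its value. When the spread was estimated over all 24 libraries, 20 subunits were lower and 3 higher, and SMARCA4, SMARCA1, BAZ1A, CHD1, CHD2, CHD9 and MBD3 were among those no longer called. How the share of all genes moved in that fit was not compared.

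**Figure D1:**
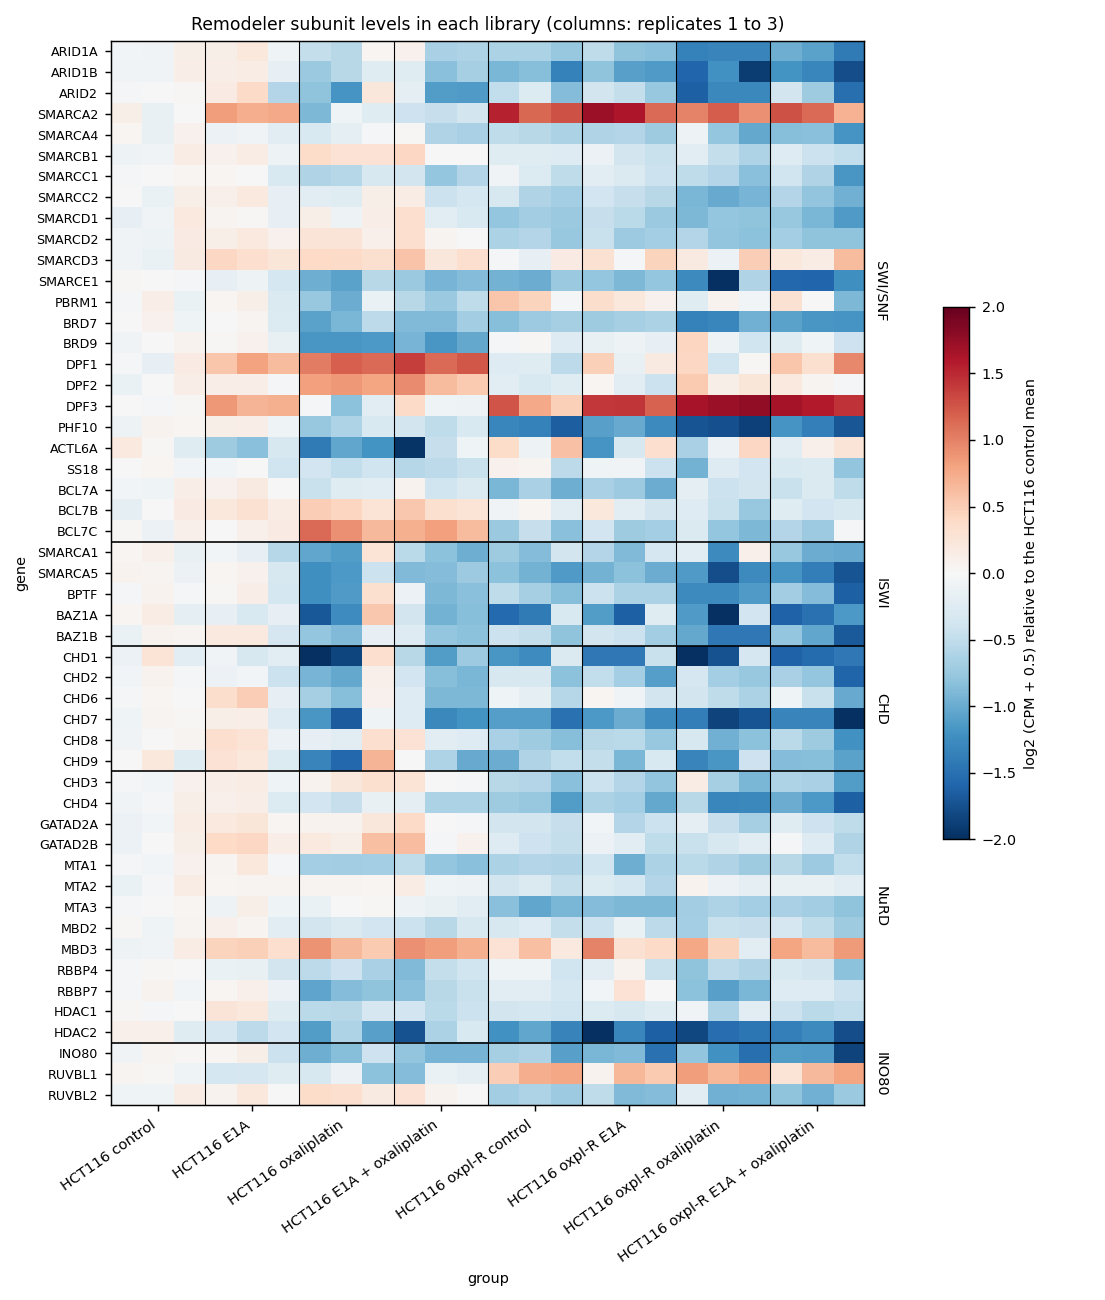
Level of each of the 51 subunits in each library as log2 (CPM + 0.5) relative to the mean of the HCT116 controls (blue lower, red higher), ordered by complex and by group with replicates 1 to 3 from left to right. The rows of SMARCA2, DPF3 and RUVBL1 are red across the HCT116 oxpl-R groups, while most other rows are blue.

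The 2 SWI/SNF ATPases differed between the lines in opposite directions. SMARCA2 stood at 6.98, 5.74 and 6.46 CPM in HCT116 controls and at 19.5, 14.8 and 16.2 CPM in HCT116 oxpl-R controls. The groups did not overlap, with an adjusted p of 0.000120 and a log2FC of 1.39 (SE 0.18). SMARCA4 stood at 147, 129 and 152 CPM in HCT116 and at 100.5, 97.5 and 91.9 CPM in HCT116 oxpl-R, again without overlap (log2FC −0.57, SE 0.12, adjusted p = 0.00283). Per kb of transcript, SMARCA4 exceeded SMARCA2 21.7- to 24.3-fold in the HCT116 controls and 5.32- to 6.78-fold in the HCT116 oxpl-R controls. This ratio was 5.54 to 10.3 in HCT116 oxpl-R under oxaliplatin and 21.6 to 37.3 in HCT116 under oxaliplatin.

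Of the 24 SWI/SNF genes, 12 were lower, 2 were higher and 10 did not pass the test, with a median of −0.43. PHF10, a PBAF subunit with PHD fingers, showed the largest difference of the whole list. It stood at 50.04, 56.5 and 55.3 CPM in HCT116 and at 21.4, 20.8 and 16.9 CPM in HCT116 oxpl-R (log2FC −1.45, SE 0.14, adjusted p = 6.01e-06), with every resistant library below every parental one. ARID1B and ARID1A, the large alternative DNA-binding subunits of canonical BAF, were both lower. ARID1B fell from 50.5, 50.6 and 58.3 CPM to 28.1, 29.3 and 20.6 CPM (log2FC −1.02, SE 0.15), and ARID1A from 162, 159 and 181 CPM to 108, 108 and 98.8 CPM (log2FC −0.66, SE 0.10). Per kb, ARID1A exceeded ARID1B 3.57- to 4.57-fold in HCT116 and 3.85- to 5.05-fold in HCT116 oxpl-R, ranges that overlap. The core subunits SMARCE1, SMARCD1, SMARCD2 and SMARCC2 were lower as well, with log2FC of −0.90, −0.74, −0.66 and −0.53, whereas SMARCB1 and SMARCC1 did not pass the test (−0.25 and −0.27). DPF3 was the other SWI/SNF gene that was higher. It stood at 0.904, 0.874 and 0.928 CPM in HCT116 and at 2.85, 1.86 and 1.44 CPM in HCT116 oxpl-R (log2FC 1.19, SE 0.33, adjusted p = 0.0158), which rests on 26 to 71 counts per library, and without HCT116 oxpl-R control replicate 1 it was not called (log2FC 0.88, adjusted p = 0.103). It was also just short of the threshold without HCT116 control replicate 3 (log2FC 1.22). Its paralogs DPF2, the widely expressed form, and DPF1 did not pass the test (log2FC −0.24 and −0.34), nor did the PBAF subunit PBRM1 (log2FC 0.35).

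All 5 ISWI genes and 5 of the 6 CHD genes outside NuRD were lower in untreated HCT116 oxpl-R. SMARCA5, the main ISWI ATPase, stood at 193, 191 and 169 CPM in HCT116 and at 104, 95.6 and 83.7 CPM in HCT116 oxpl-R (log2FC −0.97, SE 0.12), and SMARCA1, its paralog, at −0.64 (SE 0.14). BAZ1A, the regulatory partner of SMARCA5 in the ACF complex, had a log2FC of −0.99 (SE 0.27), with 12.8, 14.1 and 30.9 CPM in HCT116 oxpl-R against 39.2, 42.3 and 33.4 CPM in HCT116. CHD7, a remodeler of enhancers mutated in CHARGE syndrome, stood at 42.3, 46.8 and 45.3 CPM in HCT116 and at 20.7, 20.6 and 15.6 CPM in HCT116 oxpl-R (log2FC −1.23, SE 0.14, adjusted p = 3.94e-05). CHD1, which remodels nucleosomes behind the elongating polymerase, had a log2FC of −0.85 (SE 0.24), with 12.8, 11.9 and 23.8 CPM against 26.9, 35.5 and 25.2 CPM. In both BAZ1A and CHD1 HCT116 oxpl-R replicate 3 was nearer to the parental level than the other replicates. Both genes passed the threshold in 3 of 6 fits with 1 library left out, and were not called without HCT116 control replicate 2 or 3 or HCT116 oxpl-R control replicate 1 (log2FC over the 6 fits −1.48 to −0.77 for BAZ1A and −1.21 to −0.65 for CHD1). From the second table neither was called (log2FC −0.88 and −0.32). CHD8, a repressor of Wnt target genes, had a log2FC of −0.73 (SE 0.11) and CHD2 one of −0.47 (SE 0.14), while CHD6 did not pass the test (−0.26). CHD9 was called lower at −0.70 (SE 0.19), but the second table gave it 0.27 with an adjusted p of 0.549, so that its direction depends on the table. CHD9 was not called without HCT116 control replicate 2 or HCT116 oxpl-R control replicate 1 (passing in 4 of 6 fits), and CHD2 was not called without any 1 of the HCT116 controls (passing in 3 of 6) or from the second table (log2FC −0.30).

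Of the 13 NuRD genes, 10 were lower and only MBD3, the methyl-CpG-binding domain subunit, was higher. HDAC2 stood at 263, 263 and 208 CPM in HCT116 and at 106, 119 and 96.9 CPM in HCT116 oxpl-R (log2FC −1.18, SE 0.13, adjusted p = 2.66e-05). Its paralog HDAC1 had a log2FC of −0.36 (SE 0.10). Per kb, HDAC1 exceeded HDAC2 4.35- to 5.58-fold in HCT116 and 8.17- to 9.03-fold in HCT116 oxpl-R, without overlap. The size of this excess depends on the canonical lengths used, 2.12 kb for HDAC1 and 9.74 kb for HDAC2. The ATPases CHD4 and CHD3 were lower by similar amounts (log2FC −0.84, SE 0.13, and −0.65, SE 0.12), and the CHD4 to CHD3 ratio per kb was 6.12 to 6.73 in HCT116 and 5.88 to 6.23 in HCT116 oxpl-R. The scaffold MTA3 was at −0.93 (SE 0.12), MTA1 at −0.60 (SE 0.10) and MTA2 at −0.37 (SE 0.11). MBD3 was at 0.39 (SE 0.13, adjusted p = 0.0357), with 181, 186 and 217 CPM in HCT116 against 238, 297 and 224 CPM. It passed the threshold in 2 of 6 fits with 1 library left out (0.25 to 0.49), and was not called without replicate 1 or 2 of either group. The histone chaperones RBBP4 and RBBP7 did not pass the test (−0.17 and −0.26). Reads of close paralogs such as HDAC1 and HDAC2, RBBP4 and RBBP7, or SMARCA1 and SMARCA5 are divided between the genes by the quantification, so that their split is less certain than their sum.

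In the INO80 family the ATPase INO80 was lower (74.0, 80.7 and 79.1 CPM against 49.1, 50.7 and 36.5 CPM, log2FC −0.77, SE 0.14). The partner ATPases RUVBL1 and RUVBL2 differed in opposite directions. RUVBL1 stood at 270.04, 262 and 245 CPM in HCT116 and at 363, 431 and 442 CPM in HCT116 oxpl-R (log2FC 0.68, SE 0.11, adjusted p = 0.000651), whereas RUVBL2 stood at 353, 353 and 414 CPM and at 231, 242 and 224 CPM (log2FC −0.67, SE 0.11, adjusted p = 0.000429). The RUVBL1 to RUVBL2 ratio per kb was 0.466 to 0.618 in HCT116 and 1.30 to 1.58 in HCT116 oxpl-R. RUVBL1 lies on chromosome 3, where the median log2FC of 636 expressed genes was 0.42. With an offset for the median of each chromosome its log2FC was 0.29 and it was no longer called (adjusted p = 0.0674). The same offset left SMARCA2 at 1.31, DPF3 at 1.28 and PHF10 at −1.19, all 3 still called.

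**Figure D2:**
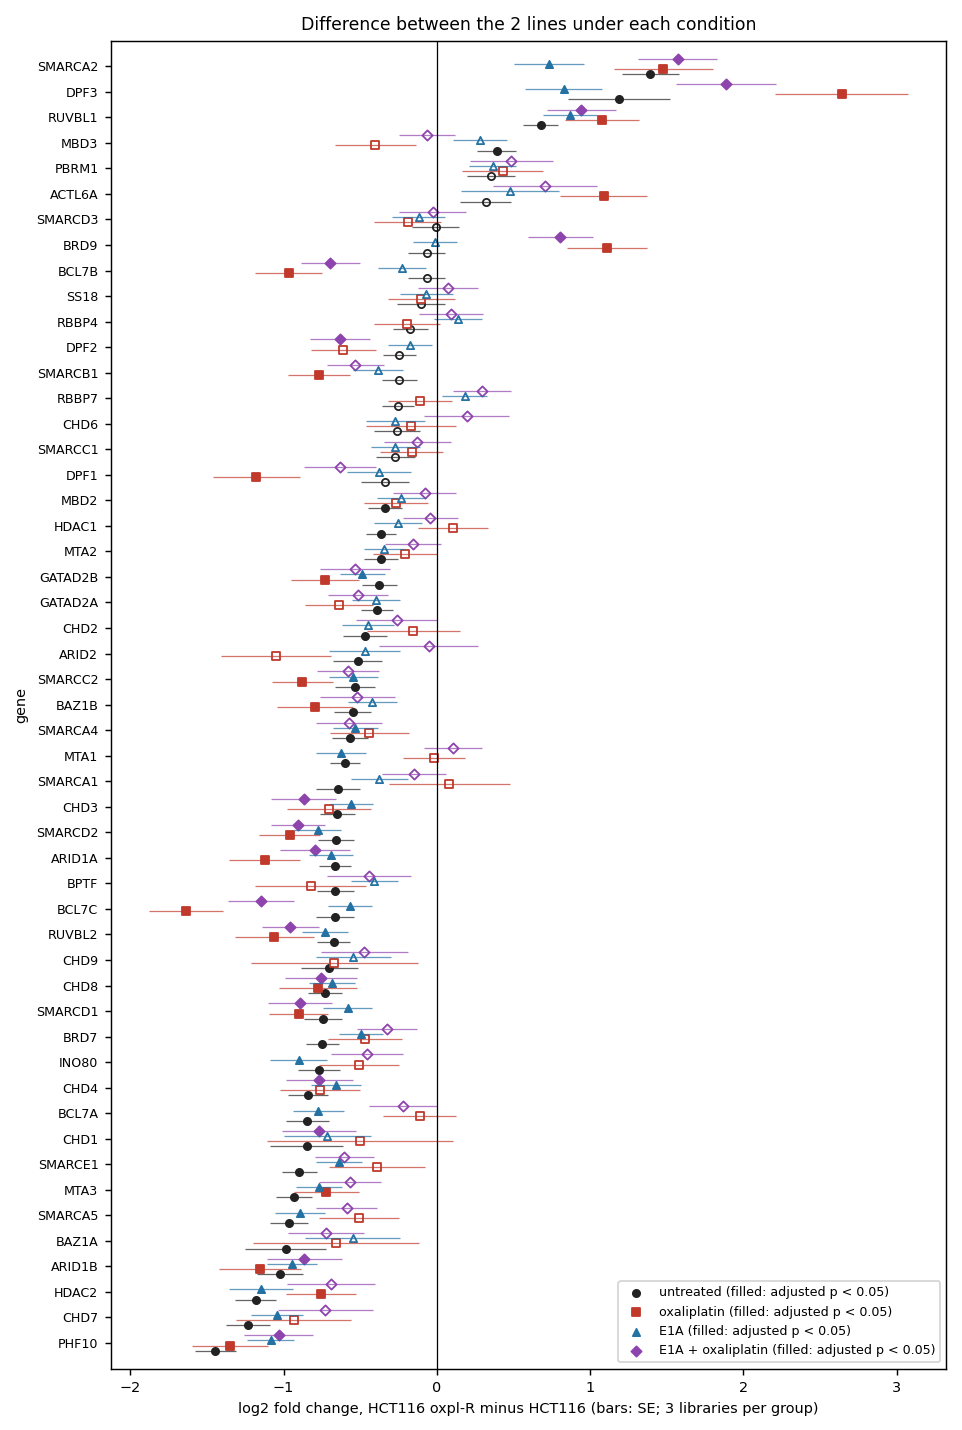
Log2 fold change of each subunit between HCT116 oxpl-R and HCT116 without treatment (black), under oxaliplatin (red), with E1A (blue) and with both (violet), with SE and sorted by the untreated difference; filled symbols passed an adjusted p of 0.05. SMARCA2, DPF3 and RUVBL1 lie to the right of 0 in all 4 comparisons and PHF10, ARID1A and ARID1B to the left.

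The same comparison of lines was made within each treatment, on other libraries. Under oxaliplatin HCT116 oxpl-R showed 16 subunits at lower and 5 at higher levels, where 10.9% of all genes were lower in either table and 9.77% and 10.7% were higher in the count and the second table. With E1A 22 were lower and 3 higher (7.10% and 7.48% of all genes lower, 10.6% and 8.44% higher). With both agents 13 were lower and 4 higher (8.39% and 6.90% lower, 10.1% and 7.45% higher). The medians of the 51 genes were −0.51, −0.47 and −0.52. The count with E1A rested partly on HCT116 E1A replicates 1 and 2, as it was 1 higher and 11 lower without replicate 1, and 1 higher and 8 lower without replicate 2. Without HCT116 E1A replicate 3, which stood apart in long transcripts, it was 1 higher and 23 lower. The count with both agents was 3 higher and 5 lower without HCT116 oxpl-R E1A + oxaliplatin replicate 2, and with an offset for length and GC content it was 5 higher and 25 lower. The share of all genes in these refits was not compared, so that these counts cannot be weighed against it. Of the other libraries that stand apart, leaving out HCT116 oxaliplatin replicate 3 gave 4 higher and 13 lower under oxaliplatin. In that fit 9.69% and 11.1% of all genes were higher and 10.7% and 11.7% lower. Leaving out HCT116 E1A + oxaliplatin replicate 1 gave 4 higher and 16 lower with both agents (11.5% and 9.53% of all genes higher, 9.74% and 8.83% lower). Leaving out HCT116 oxpl-R E1A + oxaliplatin replicate 3 gave 5 higher and 11 lower (8.68% and 5.91% of all genes higher, 8.65% and 6.18% lower).

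Across the 4 comparisons, 44 subunits were called at least once and none in both directions. The share of all genes called at least once was not computed, so that the 44 cannot be weighed against it. The 8 genes ARID1A, ARID1B, SMARCD1, SMARCD2, PHF10, BCL7C, CHD8 and RUVBL2 were lower in all 4, and SMARCA2, DPF3 and RUVBL1 were higher in all 4. Of the 39 genes of the count table, 6 were lower and 2 higher in all 4, where 4.30% and 5.32% of all genes were. Of the 12 genes of the second table, 2 were lower and 1 higher, where 3.74% and 3.93% of all genes were. PHF10 stood between 14.4 and 26.6 CPM in the 12 HCT116 oxpl-R libraries and between 31.8 and 59.4 CPM in the 12 HCT116 libraries. SMARCA2 stood between 10.7 and 22.0 CPM in HCT116 oxpl-R and between 3.20 and 11.8 CPM in HCT116, where the 3 E1A libraries were the highest. For DPF3 the log2FC was 2.64 (SE 0.44, adjusted p = 0.00100) under oxaliplatin and 1.88 (SE 0.33, adjusted p = 0.000988) with both agents. Its levels under oxaliplatin were 0.861, 0.290 and 0.695 CPM in HCT116 and 3.91, 4.14 and 4.29 CPM in HCT116 oxpl-R, a gap that rests on 8 to 24 counts per library on the HCT116 side. BCL7C, a small BAF subunit, was at −1.64 (SE 0.24) under oxaliplatin and at −1.15 (SE 0.21) with both agents, against −0.66 (SE 0.12) in untreated cells. With 1 library left out at a time, PHF10, SMARCD2 and RUVBL1 kept all 4 calls, and each of the other 8 genes lost at least 1. With E1A, SMARCA2 (log2FC 0.63 to 0.93) and DPF3 (0.70 to 0.89) each passed the threshold in 1 of 6 fits, the one without HCT116 oxpl-R E1A replicate 3. In that comparison BCL7C was not called without any 1 of the HCT116 E1A libraries, SMARCD1 and CHD8 without replicate 1 or 2 of them, and ARID1A and RUVBL2 without replicate 2. With both agents ARID1A, ARID1B and CHD8 were not called without HCT116 oxpl-R E1A + oxaliplatin replicate 2 or 3, nor SMARCD1 without replicate 2, and CHD8 also not without HCT116 E1A + oxaliplatin replicate 1. Under oxaliplatin CHD8 passed in 1 of 6 fits (−0.99 to −0.57), the one without HCT116 oxpl-R oxaliplatin replicate 1. CHD8 was not called from the second table in untreated cells or under oxaliplatin (log2FC −0.36 and −0.50). From that table DPF3, ARID1B and CHD8 were also not called with both agents, nor DPF3 with E1A, where it was not called with RLE scaling, DESeq2 or the replicate block either. RUVBL1 was called in none of the 4 comparisons once the chromosome medians were taken into account (log2FC 0.29 to 0.56).

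Several genes were called between the lines only in treated cells. Under oxaliplatin BRD9 (log2FC 1.11, SE 0.26) and ACTL6A (1.09, SE 0.28) were higher and DPF1 (−1.18, SE 0.28), BCL7B (−0.97, SE 0.22) and SMARCB1 (−0.77, SE 0.20) were lower in HCT116 oxpl-R, while their untreated log2FC were −0.07, 0.32, −0.34, −0.07 and −0.25. These libraries also enter the comparison of oxaliplatin with control within HCT116, in which the first 4 of these genes were called, so that the calls are not independent of each other. With the chromosome offset BRD9 (log2FC 0.82) and ACTL6A (0.56) were not called, and ACTL6A was also not called without replicate 3 of either group (0.82 to 1.32 over the 6 fits).

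**Figure D3:**
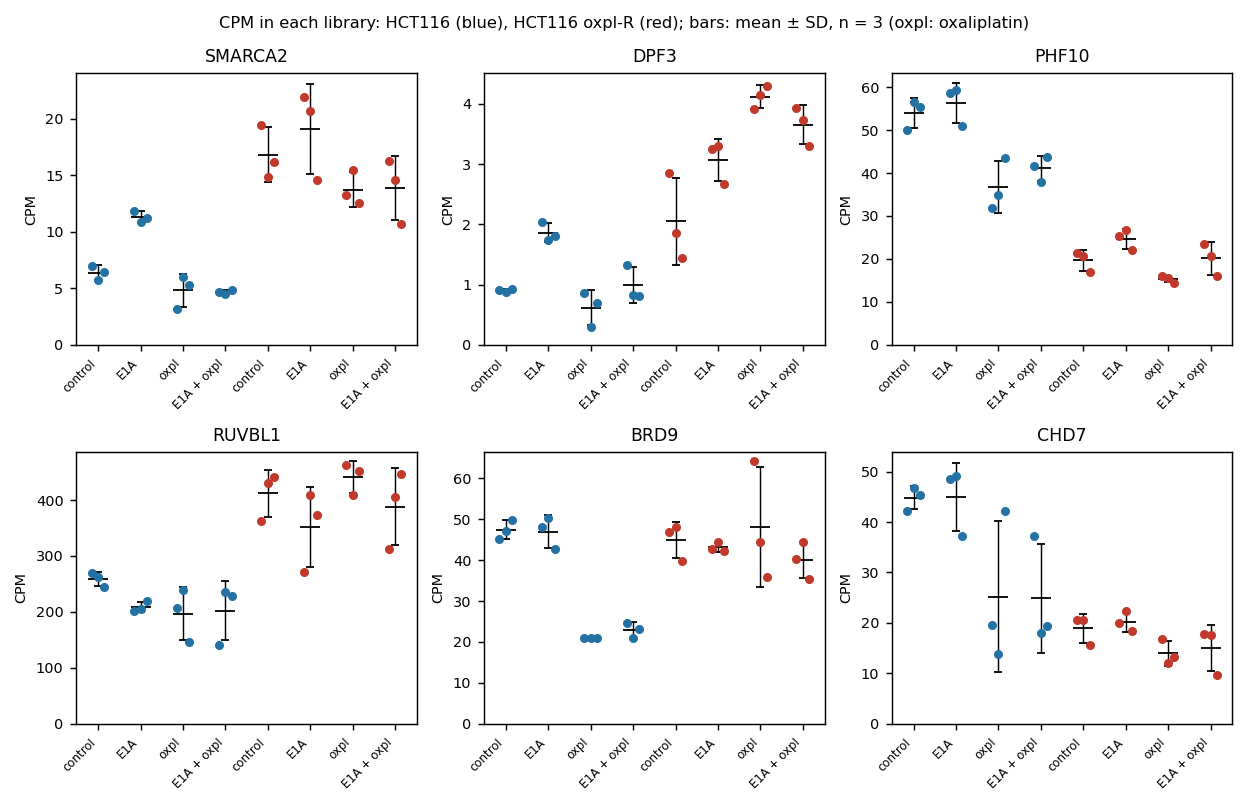
CPM of SMARCA2, DPF3, PHF10, RUVBL1, BRD9 and CHD7 in each library (points), with mean ± SD of the 3 replicates (bars), for HCT116 (blue) and HCT116 oxpl-R (red). BRD9 lies near 21.0 CPM in the 3 HCT116 oxaliplatin libraries and at 35.5 CPM or more in every HCT116 oxpl-R library.

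Oxaliplatin changed 18 of the 51 subunits in HCT116. Of these, 5 rose and 13 fell, where 13.1% and 11.8% of all genes rose and 10.2% and 9.27% fell in the count and the second table. The median of the 51 genes was −0.36, against −0.01 over the expressed genes of the count table. The subunits with transcripts of 6 kb or more had a median of −0.44 and the shorter ones −0.18. Over the expressed genes of the count table these medians were −0.36 for long transcripts and 0.08 for shorter ones. The genes that fell furthest were ACTL6A, an actin-like subunit shared by BAF, INO80 and NuA4, and BRD9, the bromodomain subunit of non-canonical BAF. ACTL6A stood at 75.4, 66.9 and 55.9 CPM in controls and at 24.5, 31.9 and 28.6 CPM after oxaliplatin (log2FC −1.15, SE 0.17, adjusted p = 0.00202). BRD9 stood at 45.3, 47.1 and 49.9 CPM in controls and at 20.9, 21.0 and 21.0 CPM after oxaliplatin (log2FC −1.10, SE 0.14, adjusted p = 0.00120). Neither gene has a long transcript, and the 3 treated libraries lay close together. SMARCA5 (−0.85, SE 0.21), HDAC2 (−0.85, SE 0.17) and the histone chaperone RBBP7 (−0.84, SE 0.12) were the next in size. With an offset for length and GC content HDAC2, whose canonical transcript is long, was at −0.05 with an adjusted p of 0.901. With the same offset SMARCA5 was at −0.23 with an adjusted p of 0.224. INO80 was called as well (−0.65, SE 0.17). SMARCA5 (−1.22 to −0.74) and INO80 (−0.89 to −0.58) each passed the threshold in 1 of 6 fits with 1 library left out, the one without HCT116 oxaliplatin replicate 3, and neither was called with the replicate number as a block.

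The 5 genes that rose have transcripts under 6 kb. DPF1, the neuronal PHD finger subunit of BAF, rose from 12.9, 11.6 and 14.7 CPM to 27.1, 30.6 and 29.2 CPM (log2FC 1.22, SE 0.17, adjusted p = 0.00159), and its paralog DPF2 from 96.7, 105 and 115 CPM to 187, 193 and 184 CPM (log2FC 0.91, SE 0.12, adjusted p = 0.00142). BCL7C rose from 97.9, 88.8 and 103 CPM to 212, 182 and 151 CPM (log2FC 0.99, SE 0.15), and BCL7B had a log2FC of 0.48 (SE 0.14). MBD3 rose from 181, 186 and 217 CPM to 364, 307 and 279.5 CPM (log2FC 0.78, SE 0.14). With an offset for length and GC content BCL7B (log2FC 0.06, adjusted p = 0.728) and MBD3 (log2FC 0.41, adjusted p = 0.140) were not called. BCL7B passed the threshold in 2 of 6 fits with 1 library left out, those without replicate 3 of either group.

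Replicate 3 decided how many subunits were called in this comparison. Without it 29 fell and 8 rose, and the share of all genes also grew, to 23.5% and 20.6% that fell and 20.7% and 18.3% that rose. The added calls included the long-transcript genes CHD1 (log2FC −1.97, SE 0.18), CHD9 (−1.51, SE 0.20), CHD7 (−1.38, SE 0.16) and BPTF (−1.16, SE 0.11), and BAZ1A (−1.46, SE 0.16), whose transcript is 5.73 kb long. CHD1 stood at 6.78, 7.80 and 37.0 CPM in the 3 treated libraries against 25.2 to 35.5 CPM in the controls, and CHD7 at 19.6, 13.8 and 42.1 CPM against 42.3 to 46.8 CPM, so that replicate 3 alone lay within or next to the control range. ACTL6A, BRD9, DPF1, DPF2 and BCL7C changed by similar amounts without it (−1.20, −1.14, 1.18, 0.89 and 1.07). With the replicate number as a block, 7 fell and 4 rose, and the share of all genes in that fit was not compared.

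In HCT116 oxpl-R 1 subunit was called after oxaliplatin, where 2.10% and 2.24% of all genes fell and 2.02% and 2.04% rose. ARID1A stood at 108, 108 and 98.8 CPM in controls and at 65.4, 66.5 and 66.6 CPM after oxaliplatin, without overlap (log2FC −0.66, SE 0.17, adjusted p = 0.0482). The call was near the threshold, passing in 2 of 6 fits with 1 library left out (without HCT116 oxpl-R oxaliplatin replicate 1 or 3), and between 0 and 5 subunits were called under other settings. In HCT116 the log2FC of ARID1A was −0.23 and was not called. CDKN1A reached 3554 to 4726 CPM in these libraries, against 530 to 604 CPM in HCT116 oxpl-R controls, and all 7 p53 targets that were listed rose. Of the genes called in HCT116, those given next had smaller values here. They were picked for passing the test in HCT116, so that smaller values in other libraries do not by themselves show a different response. ACTL6A was at −0.36 (SE 0.27), DPF1 at 0.42 (SE 0.26), DPF2 at 0.57 (SE 0.19), BCL7C at 0.05 (SE 0.21) and MBD3 at 0.03 (SE 0.24), and RBBP7 missed the threshold at −0.67 (SE 0.18, adjusted p = 0.0592).

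**Figure D4:**
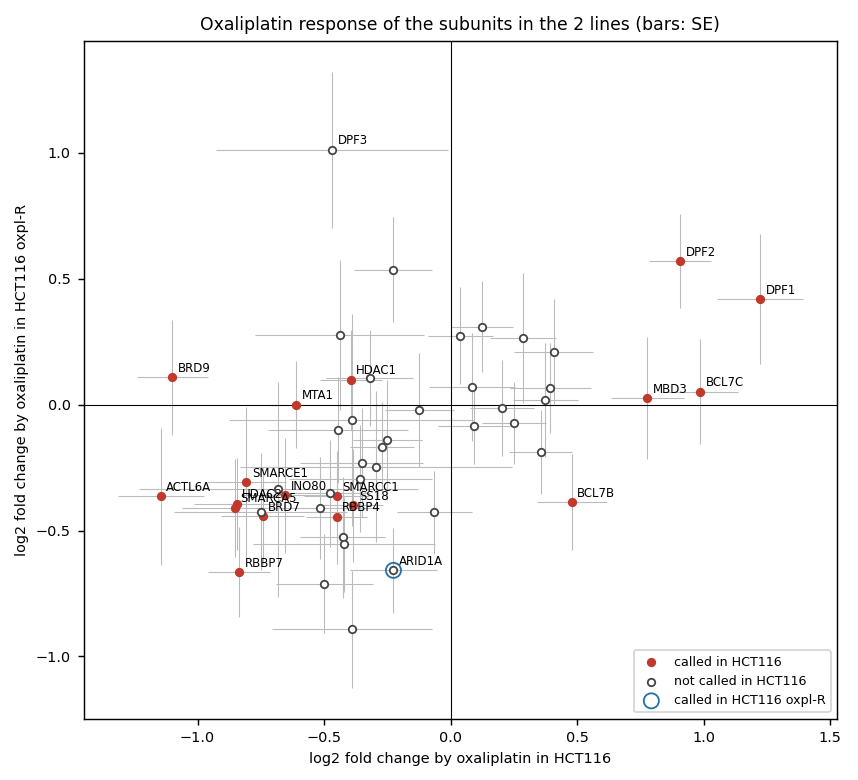
Log2 fold change by oxaliplatin in HCT116 (horizontal) and in HCT116 oxpl-R (vertical) for the 51 subunits, with SE; red points were called in HCT116 and the ringed point in HCT116 oxpl-R. BRD9 lies at −1.10 in HCT116 and at 0.11 in HCT116 oxpl-R, while ACTL6A and RBBP7 are below 0 in both.

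The difference between these responses was tested as an interaction of line and oxaliplatin. Among the 51 genes it was called for BRD9 alone, where 2.44% and 3.17% of all genes were called. In HCT116 oxpl-R, BRD9 stood at 46.8, 48.2 and 39.8 CPM in controls and at 64.3, 44.4 and 35.8 CPM after oxaliplatin, groups that overlap (log2FC 0.11, SE 0.23). The responses differed by 1.23 on the log2 scale (SE 0.28, adjusted p = 0.0261). The difference kept its sign when any 1 of the 12 libraries was left out (0.95 to 1.40) but passed the threshold in 5 of these 12 fits. BCL7B (−0.85, SE 0.24, adjusted p = 0.0659) and BCL7C (−0.92, SE 0.27, adjusted p = 0.0745) came next and were not called. Other settings called more subunits, 5 with DESeq2 and 4 with the filterByExpr filter. Leaving out 1 library gave 0 to 6. Without HCT116 oxaliplatin replicate 3, 4 were called with a positive and 2 with a negative difference. The share of all genes in these other fits was not compared. For the other 48 genes the main fit, with 3 libraries per group, called no difference between the lines in the response, which does not show that they responded alike.

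E1A was followed by few changes among the subunits. In HCT116 4 rose and 3 fell, where 2.91% and 1.74% of all genes rose and 6.59% and 3.47% fell. Of those that rose, SMARCA2 went from 6.98, 5.74 and 6.46 CPM to 11.8, 10.9 and 11.2 CPM (log2FC 0.84, SE 0.18, adjusted p = 0.00892), and DPF3 from 0.904, 0.874 and 0.928 CPM to 2.05, 1.74 and 1.81 CPM (log2FC 1.00, SE 0.30, adjusted p = 0.0340). DPF1 rose from 12.9, 11.6 and 14.7 CPM to 19.4, 23.3 and 20.5 CPM (log2FC 0.65, SE 0.13) and MBD3 had a log2FC of 0.38 (SE 0.10). In all 4 genes the groups did not overlap. Those that fell were ACTL6A (log2FC −0.66, SE 0.14), HDAC2 (−0.46, SE 0.11) and RUVBL1 (−0.36, SE 0.10). No subunit was called in this comparison with the replicate number as a block or with the spread estimated over all 24 libraries, and 2 were called without HCT116 control replicate 1 or 2 and 3 without HCT116 E1A replicate 2. Without HCT116 E1A replicate 3, which stood apart in long transcripts, 6 rose and 3 fell. The share of all genes in these other fits was not compared. Of 6 fits with 1 library left out, DPF1 passed in 6, SMARCA2 and ACTL6A in 5, MBD3 and HDAC2 in 3, and DPF3 and RUVBL1 in 2. SMARCA2, DPF3 and MBD3 were also higher in untreated HCT116 oxpl-R than in untreated HCT116, but both comparisons use the same HCT116 controls.

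In HCT116 oxpl-R no subunit was called after E1A by edgeR's quasi-likelihood test or by DESeq2, and 2 had an unadjusted p below 0.05 (DPF1 and RBBP7), where 0.0755% and 0.0593% of all genes were called. SMARCA2 stood at 22.0, 20.7 and 14.6 CPM against 19.5, 14.8 and 16.2 CPM in controls (log2FC 0.18, SE 0.22). DPF1 had a log2FC of 0.55 (SE 0.21) and DPF3 0.59 (SE 0.29). The interaction of line and E1A was called for none of the 51 genes by either tool, with 1 unadjusted p below 0.05, where 0.0164% and 0.00466% of all genes were called.

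E1A added to oxaliplatin changed no subunit in either line by edgeR's quasi-likelihood test or by DESeq2. In HCT116 none had an unadjusted p below 0.05, where 0.0246% and 0.0209% of all genes were called, and the count stayed at 0 without HCT116 oxaliplatin replicate 3 or HCT116 E1A + oxaliplatin replicate 1. SMARCA2 stood at 4.65, 4.48 and 4.83 CPM with both agents and at 3.20, 6.01 and 5.31 CPM with oxaliplatin alone (log2FC −0.04, SE 0.33), and BRD9 at 24.7, 20.9 and 23.1 CPM against 20.9, 21.0 and 21.0 CPM (log2FC 0.12, SE 0.21). In HCT116 oxpl-R 2 genes had an unadjusted p below 0.05, where 0.638% and 0.598% of all genes rose and 0% and 0.0355% fell. They were RBBP7 (log2FC 0.62, SE 0.20, adjusted p = 0.272) and DPF1 (0.60, SE 0.28, adjusted p = 0.587). In the same comparison 6 of 9 listed E2F target genes rose. The interaction of E1A and oxaliplatin was called for no subunit in either line by either tool, with 3 unadjusted p below 0.05 in HCT116 and 0 in HCT116 oxpl-R, where at most 0.00464% of all genes were called. Without HCT116 E1A + oxaliplatin replicate 1 it was called for 2 subunits in HCT116, both with a positive difference. The share of all genes without that library was not compared.

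Among 41 further remodeler genes measured (among them subunits of the NuA4, SRCAP, INO80 and NuRF complexes and related ATPases), untreated HCT116 oxpl-R had 15 at lower and 3 at higher levels, against the 14.2% and 11.5% of all genes that were lower and the 14.1% and 12.6% that were higher. The largest differences were BAZ2B (log2FC −1.21, SE 0.18), the ATPases SMARCAD1 (−0.95, SE 0.26) and SRCAP (−0.93, SE 0.19) on the lower side, and INO80C (1.25, SE 0.14), MORF4L2 (0.57, SE 0.13) and DMAP1 (0.42, SE 0.13) on the higher side. INO80C and SRCAP, the latter an ATPase that deposits H2A.Z, kept these directions and were called in all 4 comparisons of the lines. After oxaliplatin 5 of the 41 rose and 6 fell in HCT116, shares near the 13.1% and 11.8% of all genes that rose, beside the 10.2% and 9.27% that fell. In HCT116 oxpl-R only HELLS, an ATPase linked to DNA methylation and expressed in dividing cells, was called (−1.69, SE 0.23), where 2.10% and 2.24% of all genes fell.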

How the data were processed

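RNA from 24 libraries of 8 groups was analysed; groups and replicate numbers came from the sample labels. Per the paper's methods and the labels, reads were trimmed with Trimmomatic, quantified with Salmon 1.6.0 on GENCODE transcripts (GRCh38) with sequence and GC bias correction, and summed per gene with tximport. The authors deposited expected (estimated) counts per gene without normalization, which sum to between 24838095 and 37927720 per library, and a second table named TPM whose columns sum to 28004261 to 42613322. The second was therefore read as length-scaled expected counts that the authors deposited, which differs from the TPM allowed for when the tests were planned; 89.8% of values with at least 100 counts lay within 0.2 log2 units of the count table. The tables used end at SETP6 and TSC22D3, and later genes were not analysed here.

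Counts were rounded and genes without a count were dropped. Each table was tested as a whole with edgeR 4.0.16 (TMM, quasi-likelihood test, Benjamini-Hochberg adjustment over all genes of the table, R 4.3.3), using only the groups compared. There were 10 comparisons of 2 groups and 4 interactions. The test was first tried on simulated data for the untreated lines and for the interaction of line and oxaliplatin only. Alternatives were RLE scaling, DESeq2 1.42.0, filterByExpr, all libraries in one fit, a replicate block, offsets for length and GC content or for chromosome, the second table for every gene, a fold threshold, and each library left out. Replicate numbers were taken to pair the libraries where the deviations of same-numbered libraries correlated above a set minimum in every replicate. This held in 1 comparison, of the lines under oxaliplatin (correlations 0.142, 0.188 and 0.252), and the block moved its count to 24. Within HCT116 oxpl-R the correlations were 0.0846, 0.466 and 0.545 for oxaliplatin against control, and 0.0280, 0.508 and 0.675 for E1A against control. There replicate 1 fell short of the minimum, and a replicate effect shared by the groups of this line was not tested further. At this depth a CPM of 1 rests on 24.8 to 42.6 counts.

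The subunits and gene lists were chosen with earlier results of these data known. Genes named are the ATPases, the 5 largest and 5 smallest called log2FC of each comparison, genes called the same way in all 4 comparisons of the lines or in opposite directions in 2 comparisons, and the 3 largest and smallest called further remodeler genes; other names (the neighbours of these in a complex, and genes that came near a threshold) were chosen after their values were seen. Annotation came from GENCODE release 44 and promoter sequence from RefSeq, both GRCh38.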

Additional observations from a re-analysis of the deposited data

Results flagged for a closer look

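BRD9 stands out because its response to oxaliplatin differed between the lines by the test of the difference itself (1.23 on the log2 scale, SE 0.28, adjusted p = 0.0261 by edgeR's quasi-likelihood test of the interaction). The level fell in 3 of 3 HCT116 libraries and lay below the lowest control in 1 of 3 HCT116 oxpl-R libraries. Groups of 3 libraries were not screened for single outlying values.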

How the results depend on the processing

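The number of called subunits is given under each alternative that moved it by more than 1.5 times. Untreated lines: 38 as reported, 23 with all 24 libraries in one fit. Lines with both agents: 17 as reported, 30 with the length and GC offset. Oxaliplatin in HCT116: 18 as reported, 11 with the replicate block. Oxaliplatin in HCT116 oxpl-R: 1 as reported, 3 with RLE, 4 with DESeq2, 2 with filterByExpr, 5 with all libraries in one fit, 5 with the replicate block, 4 with the length and GC offset and 3 from the second table. E1A in HCT116: 7 as reported, 0 with all libraries in one fit or the replicate block, and 3 from the second table. E1A added to oxaliplatin in HCT116 oxpl-R: 0 as reported, 1 with all libraries in one fit. Line by oxaliplatin: 1 as reported, 5 with DESeq2, 4 with filterByExpr, 3 with the length and GC offset and 2 from the second table. Requiring also an absolute log2FC above 1 left 6, 11, 3 and 4 subunits in the comparisons of the lines (untreated, oxaliplatin, E1A, both), 3 for oxaliplatin in HCT116, and 0 for oxaliplatin in HCT116 oxpl-R and for E1A in HCT116. Over all genes of the count table, this cutoff left 1019 higher and 530 lower of 16715 in the untreated lines. It left 1296 and 1209 of 16342 under oxaliplatin, 1076 and 335 of 17205 with E1A, and 1214 and 629 of 16904 with both. For oxaliplatin it left 729 and 543 of 16135 in HCT116 and 247 and 275 of 16805 in HCT116 oxpl-R. For E1A in HCT116 it left 140 and 40 of 16416. The replicate block moved no other count by more than 1.5 times.

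Leaving out 1 library at a time gave 28 to 38 called subunits in the untreated lines, 15 to 24 under oxaliplatin, 9 to 32 with E1A and 8 to 20 with both agents. It gave 10 to 37 for oxaliplatin in HCT116, 0 to 3 in HCT116 oxpl-R, 2 to 9 for E1A in HCT116, 0 to 1 for E1A added to oxaliplatin in HCT116 oxpl-R, 0 to 6 for line by oxaliplatin and 0 to 2 for E1A by oxaliplatin in HCT116. In the other 4 comparisons the count stayed at 0. The causes were not tested. Except where it is given above, the share of all genes in the alternative fits was not compared with these counts.

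Of 91 results for single genes, 43 kept their direction and call under every alternative, and 1 changed sign in 1 alternative, CHD9 between the untreated lines (0.27 from the second table). With 3 libraries per group, low genes such as DPF3 rest on few counts.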

Other observations

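CHD1 and BAZ1A were higher in replicate 3 than in replicates 1 and 2 in all 4 HCT116 oxpl-R groups, with the smallest gap under both agents. CHD1 stood at 23.8 CPM in control replicate 3 (12.8 and 11.9 CPM in the others), at 21.2 CPM with E1A (10.6 and 10.6 CPM) and at 23.1 CPM with oxaliplatin (6.86 and 8.40 CPM). BAZ1A stood at 30.9 CPM (12.8 and 14.1 CPM), 32.4 CPM (17.4 and 12 CPM) and 29.2 CPM (17.2 and 8.78 CPM) in the same libraries. With both agents replicate 3 was at 10.6 CPM for CHD1 (9.24 and 9.72 CPM in the others) and at 17.1 CPM for BAZ1A (12.1 and 13.3 CPM).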
